A study of Mus musculus with 15 samples.

Results

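The Zscan4 family is a set of near-identical mouse genes that lie in 1 cluster on chromosome 7 and encode proteins with a SCAN domain and zinc fingers. Its members were selected on the gene symbol alone, as the copies Zscan4a to Zscan4f, which gave 6 of the 21662 genes counted. The family was taken up with earlier results of these samples known, so the p-values below describe the fit and are no independent evidence that the family differs.

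Zscan4 is transcribed in the 2-cell embryo, at the time when the mouse genome is first switched on. In cultures of embryonic stem cells (ESC), the pluripotent cells of the early embryo, it is found in a small and changing share of cells that pass through a state like that of the 2-cell embryo and express other genes of that stage together with it. It is known for its part in keeping telomeres long. Hmga1 is a small chromatin protein whose AT-hooks hold the minor groove of AT-rich DNA, and Hmga2 is its close relative.

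RNA of ESC from a mixed 129Sv-C57Bl/6 background, grown in serum and LIF on feeders or gelatine, was sequenced in 2 experiments. The KO experiment held WT cells (samples a, b and c), an Hmga1 KO line in which Cas9 shifted the reading frame (a and b), and KO cells with a biotin-tagged Hmga1 or Hmga2 cDNA under the CAG promoter, named the Hmga1 add-back and Hmga2 add-back (a and b of each). The full-deletion experiment held WT cells and a line without the Hmga1 coding sequence (a, b and c of each). The parental cells carry the biotin ligase BirA, and each genotype is 1 cell line, so that genotype and clone cannot be told apart. In the KO experiment the letters are batches, prepared on 1 day and run on 1 flow cell, and no KO or add-back sample belongs to batch c. Summed counts ran from 13465399 to 34952136 per sample in the KO experiment and from 14832310 to 21708492 in the full-deletion experiment. Hmga1 itself lay between 221 and 464 CPM (the unit of all levels here, counts scaled to a common library total after TMM normalization) in WT and between 96.1 and 217 CPM in KO, and between 310 and 357 CPM in WT against 10.9 to 12.3 CPM in the full deletion. In the Hmga1 add-back Hmga1 was at 184 and 123 CPM in batches a and b, against 217 and 96.1 CPM in KO, so that counts on the gene were lower than in KO in batch a and higher in batch b. These counts do not show protein. By Western blot the paper found no Hmga1 protein in KO, whose remaining transcript lacks an exon, or in the full deletion. It reports Hmga1 protein in the Hmga1 add-back at a level comparable to WT. Hmga2 was at 249 and 222 CPM in the Hmga2 add-back, against 18.9 and 13.8 CPM in KO. Of the ESC markers 7 of 7 were counted in every sample. WT b of the full-deletion experiment stood apart from its group, with a TMM factor of 0.752. A bulk level cannot tell more cells that express Zscan4 from more Zscan4 RNA per cell.

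The copies are so alike that most reads cannot be placed at 1 of them, and the authors put such a read at 1 of its best alignments at random. Gene models of the NCBIM37 (mm9) assembly were at hand for 5 copies, each with 4 exons on chromosome 7, within a span of 502 kb. These are Zscan4b (chr7:11486098-11490399, minus strand), Zscan4c (chr7:11591071-11595896, plus), Zscan4d (chr7:11746992-11751497, minus), Zscan4e (chr7:11891727-11896031, minus) and Zscan4f (chr7:11983264-11988090, plus). Zscan4a was counted by the authors, and its position was not analysed here. The transcripts were 96.8% to 99.7% identical, with Zscan4b and Zscan4e (99.7%) and Zscan4c and Zscan4f (99.6%) as the closest pairs.

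Each exon of these transcripts was cut into every possible window of 47 bases, the length of a read after trimming. Windows across splice junctions were not made, and the whole genome was searched for exact matches. Only 1436 of 8667 windows, 16.6%, occurred at a single place. Zscan4d had the highest share of such windows, 48.6%, and Zscan4f the lowest, 2.86%. In Zscan4b 89.6% of windows also occurred in Zscan4e, and in Zscan4f 83.8% also occurred in Zscan4c. A further locus, Zscan4-ps2, held 87.2% of the windows of Zscan4f and is not among the genes counted here. A count on 1 copy is therefore largely a share of the family's reads, and the sum over the 6 copies is the value that the placing of reads touches least.

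**Figure D1:**
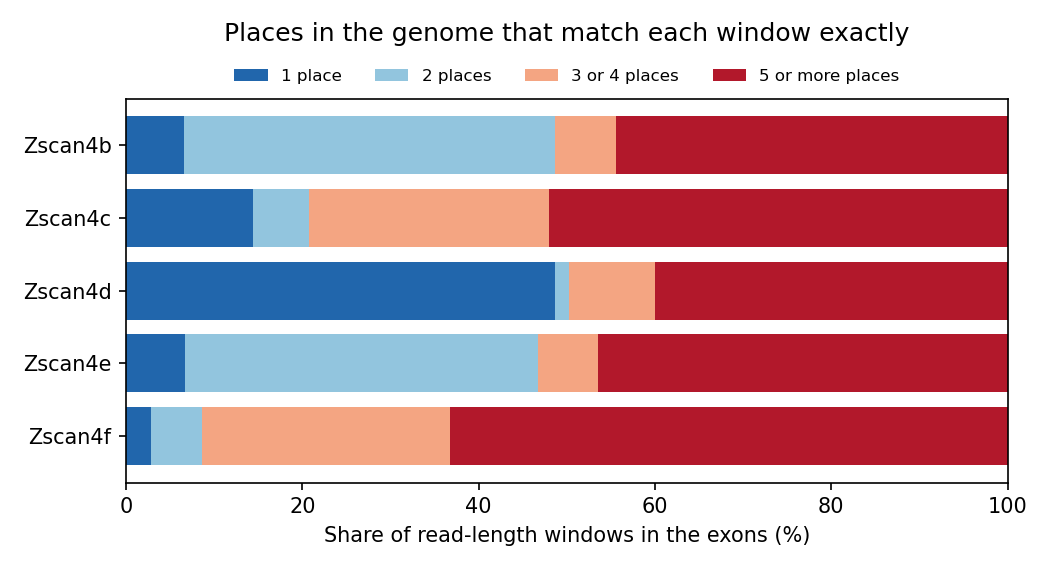
Share of the 47-base windows within exons of 5 Zscan4 copies (x axis, %). The windows match the genome exactly at 1, 2, 3 or 4, or 5 or more places. Zscan4d has 48.6% of windows at 1 place, and each other copy has 14.4% or less.

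The copies also have closely alike promoters where these were at hand, and a stretch of them is shown. The part of the promoters in the levels of the copies was not tested. RefSeq promoters on GRCm38.p6 were at hand for 4 of the 6 copies. The 250 bases upstream of the start were 94.7% to 99.6% identical between these copies. The 90 bases around the TATA box, 5′ to 3′ on the strand of the gene and with TATAAA in capitals, read as follows.
Zscan4b (chr7:10905067-10905156, minus): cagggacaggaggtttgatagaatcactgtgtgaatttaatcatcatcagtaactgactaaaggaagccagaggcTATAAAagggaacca
Zscan4c (chr7:11005616-11005705, plus): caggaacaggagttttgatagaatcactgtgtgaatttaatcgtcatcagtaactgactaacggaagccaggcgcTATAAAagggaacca
Zscan4d (chr7:11166199-11166288, minus): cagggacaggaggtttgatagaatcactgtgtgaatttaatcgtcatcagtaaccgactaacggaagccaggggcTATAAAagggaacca
Zscan4f (chr7:11397809-11397898, plus): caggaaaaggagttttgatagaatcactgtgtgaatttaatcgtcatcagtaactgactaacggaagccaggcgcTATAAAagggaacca
Zscan4c and Zscan4f differed at 1 of these 90 bases, and the other pairs differed at 4 to 7. The stretch of Zscan4b occurs at 2 places of chromosome 7 in NCBIM37, the second of them (chr7:11896048-11896137, minus) just upstream of Zscan4e. The letters TATAAA, on either strand, stood within 250 bases upstream in 4 of these 4 copies and in 12.4% of all 32851 promoters. The longer TATAAAAG, which holds TATAAA, stood in 4 of 4 copies and in 1.51% of all promoters. The distance from TATAAA to the annotated start was 31 bases in Zscan4b and Zscan4f, 54 in Zscan4c and 65 in Zscan4d.

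In the KO experiment the family was lowest in WT and higher in each of the 3 lines derived from it. The sum over the copies was 2.69, 7.29 and 2.70 CPM in WT a, b and c, from 85, 94 and 65 reads. It was 100.3 and 37.9 CPM in KO a and b (3574 and 498 reads), 52.8 and 43.5 CPM in the Hmga1 add-back (1838 and 580 reads), and 17.4 and 27.2 CPM in the Hmga2 add-back (587 and 386 reads). By their means the groups were ordered as WT at 4.23 ± 2.66 CPM (SD, n = 3), the Hmga2 add-back at 22.3 ± 6.93 (n = 2), the Hmga1 add-back at 48.1 ± 6.57 (n = 2) and KO at 69.1 ± 44.1 (n = 2). Neighbours in this order did not overlap, except that the Hmga1 add-back lay inside the range of KO.

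In the full-deletion experiment the family was lower in the line without Hmga1. The sum was 16.5, 17.4 and 16.1 CPM in WT a, b and c, from 348, 284 and 335 reads, and 7.98, 9.29 and 9.63 CPM in the full deletion, from 132, 215 and 212 reads. The highest sample of the full deletion thus lay below the lowest WT sample. For neither experiment was it counted how many of all genes separate in such a way. The means were 16.7 ± 0.649 and 8.97 ± 0.869 CPM (SD, n = 3 each). The WT cells of this experiment had 3.95 times the mean level of the WT cells of the KO experiment, a ratio across tables that were normalized separately.

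**Figure D2:**
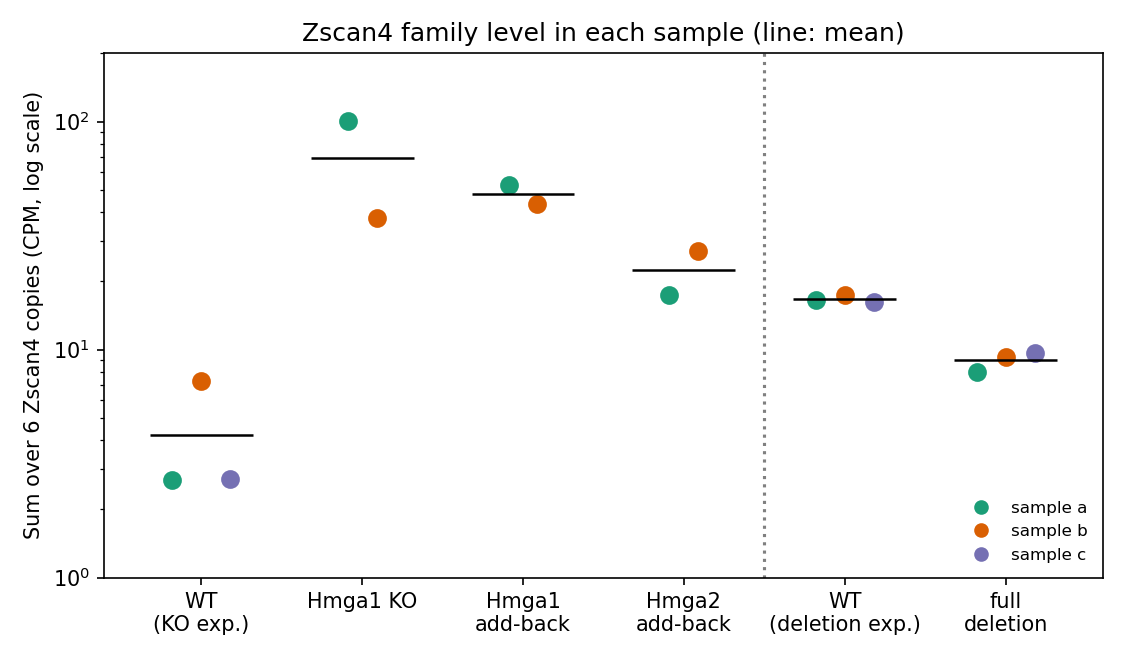
Summed level of the 6 Zscan4 copies in each sample (y axis, CPM, log scale) by group, with colours for the letters a, b and c and a line at the mean; a dotted line parts the 2 experiments. KO and add-back samples lie between 17.4 and 100.3 CPM, above WT at 2.69 to 7.29 CPM, while the full deletion at 7.98 to 9.63 CPM lies below its WT at 16.1 to 17.4 CPM.

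The sum was entered as 1 row in place of its copies, and every gene whose counts averaged 10 or more was fitted by the quasi-likelihood method of edgeR, which took account of batch in the KO experiment. In that experiment WT c is alone in batch c, so that with the batch term the fitted differences from WT rest on WT a and b. The call required an adjusted p (Benjamini-Hochberg, over all genes tested) under 0.01 together with at least a 2-fold difference. The log2 fold change of the sum in KO against WT was 3.92 (SE 0.59, adjusted p = 0.0623 by edgeR), a 15.1-fold higher fitted level that did not pass the call. It was the 12th of 13907 by size and the 31st by p. The Hmga1 add-back differed from WT by 3.39 (SE 0.58, adjusted p = 0.0905) and the Hmga2 add-back by 2.26 (SE 0.57, adjusted p = 0.143), in comparisons that share the same WT samples. The full deletion differed from its WT by -0.89 (SE 0.12, adjusted p = 0.0200), which missed the call by both its p and its size. With the counts scaled by their plain totals this value was -0.60, while the median of all genes moved by 0.28.

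The lines with a cDNA put back were also set against KO. The Hmga1 add-back differed from KO by -0.53 on the log2 scale (SE 0.49, adjusted p = 0.99997 by edgeR). The Hmga2 add-back differed from KO by -1.65 (SE 0.51, adjusted p = 0.877) and from the Hmga1 add-back by -1.13 (SE 0.50, adjusted p = 0.99995). None of the 3 passed the call. Without KO a, the difference between the Hmga1 add-back and KO turned to 0.64.

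Batches a and b of the KO experiment did not give the same size. Within batch a the summed level of KO was 37.3 times that of WT (95% interval of the counts 30.1 to 46.8), and within batch b it was 5.19 times (4.16 to 6.54). These intervals come from an exact binomial test of the reads and cover counting error only. For the Hmga1 add-back against WT the ratios were 19.6 and 5.96, and for the Hmga2 add-back 6.47 and 3.73. Every ratio against WT was thus above 1, and each was higher in batch a. Against KO, the Hmga1 add-back stood at 0.526 in batch a and 1.15 in batch b, and the Hmga2 add-back at 0.173 and 0.718, so that the Hmga1 add-back was lower than KO in 1 batch only. Batch a itself was lower than batch b in WT, at 0.369 times its level, and higher in KO, at 2.65 times. Over the 9 pairs of samples in the full-deletion experiment, the ratio of full deletion to WT lay between 0.459 and 0.597.

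Single copies followed the sum, which is largely given in advance, because they are its parts and share reads. The counts of copies here and below are thus not counts of separate observations. All 6 copies passed the filter on low counts in each experiment. In WT of the KO experiment, however, Zscan4b (5, 10 and 4 reads in a, b and c) and Zscan4e (6, 8 and 9 reads) averaged under 10. There they passed only through the groups where they are higher, so their direction in KO against WT lends no support. In KO against WT 6 of 6 copies had a higher fitted level, with log2 fold changes from 3.62 (Zscan4d) to 4.56 (Zscan4e, SE 0.63, adjusted p = 0.0534 by edgeR), and 0 of 6 were called, where 0.0216% of all 13912 genes were. With Hmga1 put back 6 of 6 were higher than in WT (3.07 to 3.85), with 0 called against 0.0144% of all genes. With Hmga2 put back 6 of 6 were higher than in WT (1.89 to 2.84), with 0 called against 0.0647%. In the full deletion against WT 6 of 6 were lower, from -1.23 (Zscan4a, SE 0.25, adjusted p = 0.0358) to -0.58 (Zscan4b, SE 0.33, adjusted p = 0.233), with 0 called against 0.0687% of 13098 genes. The SE of a copy ranged from 0.59 to 0.73 in KO against WT and from 0.16 to 0.33 in the full deletion against WT.

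Between the lines of the KO experiment the copies had the same order as the sum. In the Hmga1 add-back against KO 6 of 6 copies had a lower fitted level (-0.72 to -0.36). Within batch b, however, 4 of the 6 stood above KO, from Zscan4c at 1.08 times its level to Zscan4a at 1.82 times, with Zscan4d and Zscan4f between them, and without KO a the fitted differences of all 6 turned to 0.12 to 1.11. In this comparison 0 copies and 0% of all genes were called. In the Hmga2 add-back against KO 6 of 6 were lower (-1.96 to -1.44), with 0 copies and 0.00719% of genes called. In the Hmga2 add-back against the Hmga1 add-back 6 of 6 were lower (-1.36 to -0.92), again with 0 copies and 0.00719% of genes called.

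Beside these counts of 0 by edgeR stand those of the other tests, each with the share of all genes that passed the same rule. At an unadjusted p under 0.05, edgeR counted all 6 copies in KO against WT (12.6% of all genes), 6 with Hmga1 put back (13.3%), 6 with Hmga2 put back (16.9%) and 5 in the full deletion against WT (37.0%). It counted 0 copies in the Hmga1 add-back against KO (2.80%), 6 in the Hmga2 add-back against KO (5.09%) and 3 in the Hmga2 add-back against the Hmga1 add-back (1.27%). The Wald test of DESeq2 called 6 copies in KO against WT (0.546% of all genes), 6 in the Hmga1 add-back (0.546%), 2 in the Hmga2 add-back (0.783%) and 1 in the full deletion (3.53%). It called 0 copies in the other 3 comparisons, in the order above (0.0144%, 0.0719% and 0.0216%). The limma-trend test called 0 in each of these 7 comparisons, where its calls among all genes were 0% to 0.0687%. Among all genes edgeR called 3 in KO against WT, and DESeq2 called 76.

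**Figure D3:**
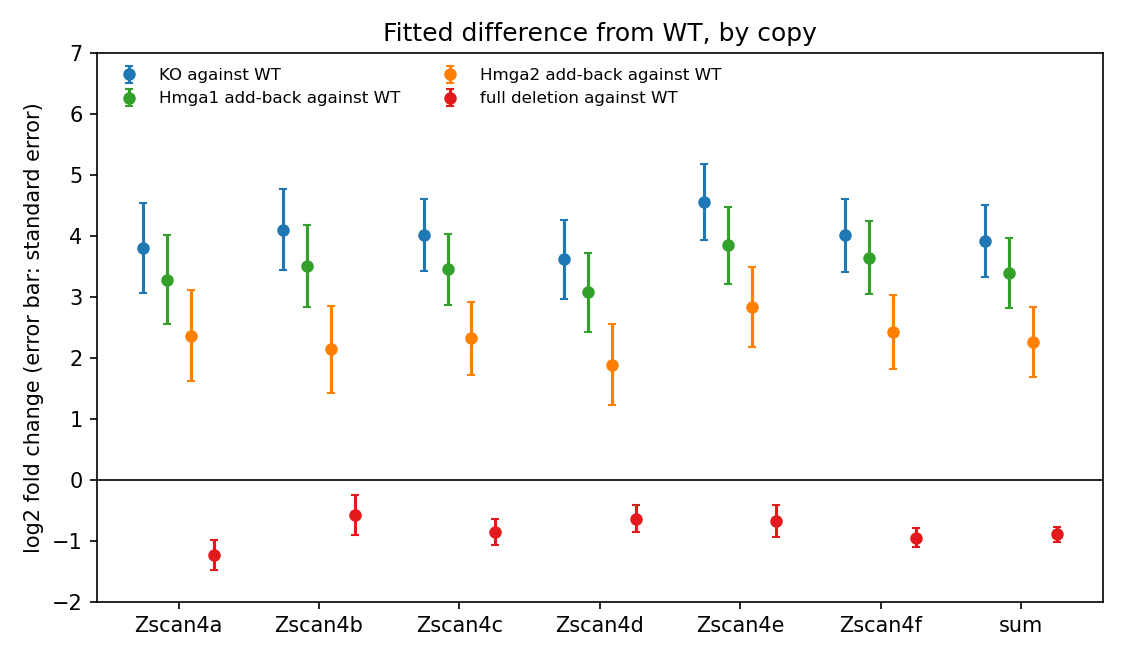
Fitted log2 fold change against WT (y axis, points) with its standard error (bars) for each Zscan4 copy and for their sum, in 4 comparisons. KO values run from 3.62 to 4.56, the Hmga1 add-back from 3.07 to 3.85, the Hmga2 add-back from 1.89 to 2.84, and the full deletion from -1.23 to -0.58.

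The opposite directions in KO and full deletion were tested as a difference of effects in a fit of all 15 samples. The effect of the full deletion on the sum was lower than that of the KO by 4.81 on the log2 scale (log2 difference -4.81, SE 0.62, adjusted p = 0.00688 by edgeR), which passed the call. With the sum as 1 row, 0.0659% of all 13666 rows were called. Among the copies 3 of 6 were called, all lower, against 0.0951% of 13671 genes: Zscan4c at -4.87, Zscan4e at -5.25 and Zscan4f at -4.96. The other 3 copies had differences from -5.05 to -4.27 and adjusted p from 0.0226 to 0.0300 by edgeR. Zscan4b and Zscan4e averaged under 10 reads in WT of the KO experiment, so their values here lend no support. All 6 copies were called by DESeq2 (0.797% of all genes) and 2 by limma-trend (0.0731%). The call of the sum was lost when any of 11 of the 15 samples was left out, at differences of -4.85 to -3.70. The WT levels of the experiments, with means of 4.23 and 16.7 CPM, enter this difference, except WT c of the KO experiment, which the batch term absorbs. Experiment, WT culture and clone cannot be told apart in this difference.

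Of 13050 genes tested in both experiments, 14 had a log2 fold change of 1 or more in KO and of -1 or below in the full deletion. Zscan4a was 1 of these 14. Of the other copies Zscan4f, at -0.95 in the full deletion, and Zscan4c, at -0.86, lay nearest to that limit, and Zscan4e, Zscan4d and Zscan4b lay at -0.68, -0.64 and -0.58.

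**Figure D4:**
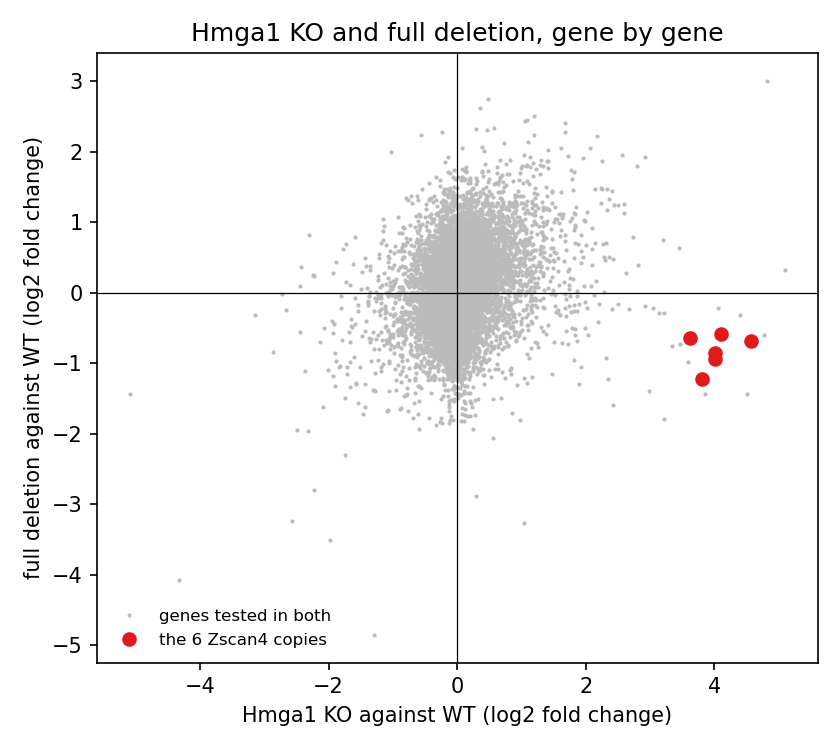
Log2 fold change against WT in the Hmga1 KO (x axis) and in the full deletion (y axis) for the 13050 genes tested in both experiments, with the 6 Zscan4 copies in red. The copies lie at 3.62 to 4.56 on the x axis and at -1.23 to -0.58 on the y axis.

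Zscan4c and Zscan4f took most of the family's reads in each group. Grouped by their sequence, Zscan4c and Zscan4f held 52.0% (WT of the KO experiment) to 60.0% (WT of the full-deletion experiment) of the reads, Zscan4b and Zscan4e 11.1% to 20.4%, Zscan4d 11.8% to 14.3% and Zscan4a 12.03% to 17.2%. Per kilobase of exon, where lengths no longer enter, the levels in KO were 9.40 ± 5.89 RPKM (SD, n = 2) for Zscan4f and 8.68 ± 5.62 for Zscan4c, against 3.69 ± 2.04 for Zscan4b. The SDs of these 3 levels are wide because KO a was higher than KO b for every copy.

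The share of Zscan4b and Zscan4e had the widest range over the groups. It was 17.2% in WT (95% exact binomial interval 12.7% to 22.5%), 20.4% in KO (19.2% to 21.7%), 19.6% with Hmga1 put back (17.998% to 21.2%) and 19.3% with Hmga2 put back (16.9% to 21.9%). It was 11.1% in WT (9.16% to 13.2%) and 13.1% in the full deletion (10.4% to 16.1%) of the other experiment. Within each experiment the intervals overlapped. By sample it ran from 12.9% to 23.5% in the KO experiment and from 9.77% to 13.6% in the full-deletion experiment. The share of Zscan4d, the copy with the most windows of its own, lay between 11.8% and 14.3% by group, with intervals that overlapped throughout, and by sample between 7.69% and 18.1% in the KO experiment and between 10.7% and 15.9% in the full-deletion experiment.

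**Figure D5:**
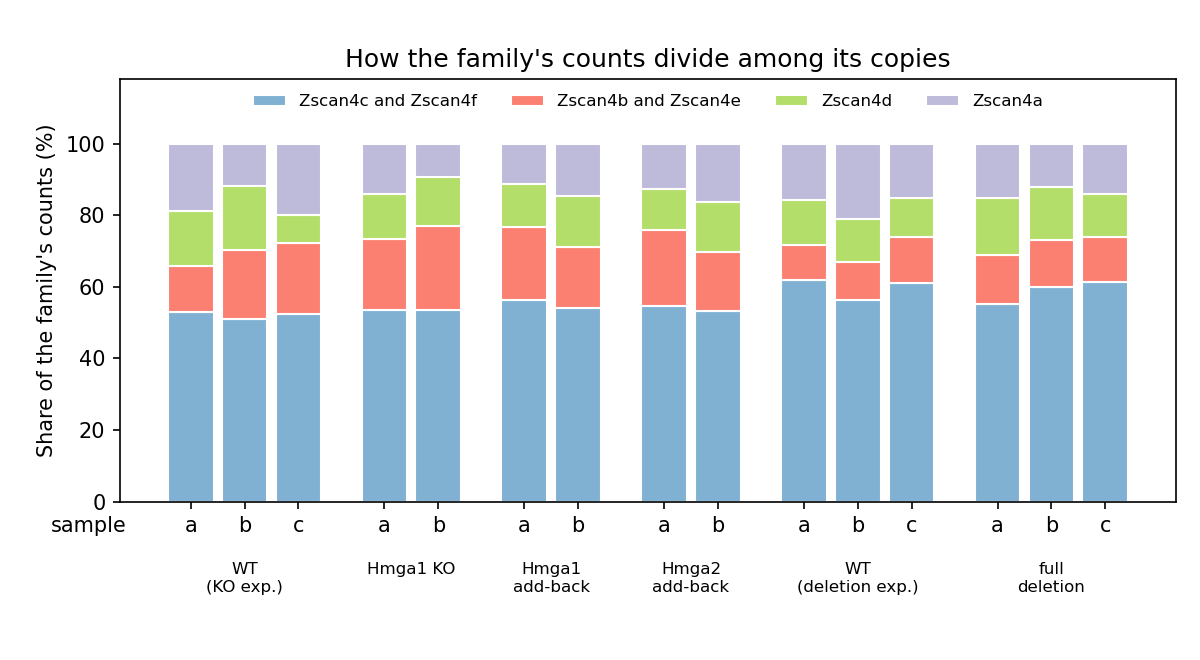
Share of the family's counts (y axis, %) that fell on Zscan4c and Zscan4f, Zscan4b and Zscan4e, Zscan4d and Zscan4a in each of the 15 samples. Zscan4b and Zscan4e hold 9.77% to 13.6% in the full-deletion experiment and 12.9% to 23.5% in the KO experiment.

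The copies rose and fell together across samples. Over the 9 samples of the KO experiment the 15 pairs of copies had Pearson correlations of 0.954 to 0.995 in log2 CPM (median 0.980), and over the 6 samples of the full-deletion experiment 0.612 to 0.987 (median 0.858). These points share libraries, group differences and the random placing of reads, and the correlations are descriptions.

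Of 13044 genes outside the family, 5 were most like its sum, by the lower of their Pearson correlations with it in the KO experiment (9 samples) and in the full-deletion experiment (6 samples). These were Gm5662 (0.978 and 0.981), Usp17lb (0.948 and 0.955), Ddi2 (0.885 and 0.981), Tex19.1 (0.885 and 0.980) and Szrd1 (0.880 and 0.914), and a lower correlation above 0.9 was found for 2 genes. Gm5662, a 2-cell-like gene by the list used here, was at 0.822, 2.09 and 1.74 CPM in WT and at 21.1 and 9.50 CPM in KO. It was at 4.32, 4.23 and 3.52 CPM in WT and at 1.94, 2.12 and 2.04 CPM in the full deletion of the other experiment. Its levels thus did not overlap between WT and either line. This follows largely from its choice by correlation with the sum and is no further support. Tex19.1, a germline gene that is also active in ESC, differed by 0.79 in KO (SE 0.17, adjusted p = 0.143 by edgeR) and by -0.75 in the full deletion (SE 0.10, adjusted p = 0.0188). Ddi2, a protease of the ubiquitin system, differed by 0.54 and by -0.39 in the same comparisons, and neither value was called.

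Other genes of the 2-cell-like state were taken from a list of 42, of which 37 were in the tables. Over these 37, with no filter, the summed level was 418, 509 and 484 CPM in WT and 477 and 570.5 CPM in KO, which overlap. It was 507, 640.2 and 575 CPM in WT and 316, 385 and 340.4 CPM in the full deletion, which do not. Most of this sum was Eif1a, a translation initiation factor, with 400.4 to 482 CPM in WT and 331 to 489.6 CPM in KO, and with 471 to 586 CPM in WT against 290.2 to 359.8 CPM in the full deletion.

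Of the 37 genes 18 entered the test of KO and 12 that of the full deletion. The filter averages over all samples of an experiment, and 10 of the 18 had a mean under 10 reads in WT and 4 of the 12 in the full deletion, so that these could pass only through the groups where they are higher. The counts that follow describe the genes tested and lend no support to a direction of the list. In KO 17 of 18 had a higher fitted level than in WT, 0 were called by edgeR (0.0216% of all genes), 14 had an unadjusted p under 0.05 (12.6%), 7 were called by DESeq2 (0.546%) and 0 by limma-trend (0.0216%). In the full deletion 11 of 12 had a lower one, 0 were called by edgeR (0.0687%), 8 had an unadjusted p under 0.05 (37.0%), 3 were called by DESeq2 (3.53%) and 0 by limma-trend (0.0687%). In the difference of effects 2 of 14 tested were called, against 0.0951% of all genes and both lower, Gm2016 at -3.26 and Gm5662 at -4.58. Tcstv1 and Tcstv3, cluster genes of the 2-cell stage, had log2 fold changes of 3.47 and 4.14 in KO and of -0.73 and -0.62 in the full deletion. In WT a, b and c of the KO experiment Tcstv1 had 5, 4 and 5 reads and Tcstv3 had 3, 1 and 1. Both are thus among the genes that passed only through the groups where they are higher. The full deletion overlapped its WT for Tcstv1 (0.242 to 0.682 against 0.569 to 1.23 CPM) and for Tcstv3 (0.3455 to 0.500 against 0.434 to 0.858 CPM). Zfp352, a zinc finger gene of the 2-cell stage, had at most 14 reads in a sample and was not tested. Several genes of this list are themselves near-identical copies, so their counts carry the same doubt as those of Zscan4.

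A list of genes known to open or close the 2-cell-like state, which does not hold all of them, had a median near 0 in KO. Of 20 such regulators 20 were tested and 0 were called by edgeR in KO or in the full deletion, with medians of -0.01 and -0.28. At an unadjusted p under 0.05 there were 2 and 11 of the 20, where 12.6% and 37.0% of all genes were, and DESeq2 called 0 and 1 of them, where it called 0.546% and 3.53% of all genes. Dppa2 and Dppa4, which activate genes of the 2-cell stage, had log2 fold changes of -0.07 (SE 0.23) and -0.02 (SE 0.12) in KO. Their values in the full deletion were -0.77 (SE 0.11, adjusted p = 0.0202 by edgeR) and -0.25 (SE 0.11, adjusted p = 0.134). Rif1, a repressor of the 2-cell-like state, stood at 0.01 in KO and at -0.68 in the full deletion (SE 0.18, adjusted p = 0.0568). The most abundant regulators, Ncl and Trim28, had values of 0.12 and -0.05 in KO and of -1.21 and -0.60 in the full deletion, with adjusted p of 0.794 and 0.949 in the first and 0.0917 and 0.0468 in the second.

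Telomere genes, other genes with a SCAN domain, and Dnmt1 with Uhrf1, which keep DNA methylated through replication, were also listed. Their counts stand beside the same shares of all genes, 12.6% and 37.0% at an unadjusted p under 0.05 and 0.546% and 3.53% by DESeq2, in KO and in the full deletion. Of the 13 telomere genes 13 were tested and 0 were called by edgeR or DESeq2 in either line, with 0 and 6 at an unadjusted p under 0.05 by edgeR. Their medians were -0.02 in KO and -0.26 in the full deletion. Atrx and Dkc1, the most abundant, had values of 0.07 and -0.17 in KO. In the full deletion these 2 stood at -0.56 and -0.44, with adjusted p of 0.0868 and 0.0549 by edgeR. Of the 22 other SCAN genes 21 were tested and 0 called by edgeR (1 and 7 at an unadjusted p under 0.05, 0 and 1 called by DESeq2), with medians of -0.02 and -0.06. Zscan10, a pluripotency factor, stood at -0.22 in KO (SE 0.11) and at -0.30 in the full deletion (SE 0.12). Dnmt1 and Uhrf1 stood at -0.02 and -0.10 in KO and at -0.37 and -0.10 in the full deletion, with 0 called by edgeR or DESeq2 and Dnmt1 alone at an unadjusted p under 0.05, in the full deletion.

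Markers of other cells were read beside these results. Primitive endoderm markers (6 of 6 counted in every sample) summed to 116, 38.7 and 78.7 CPM in WT a, b and c, to 10.4 and 31.8 CPM in KO, to 25.0 and 67.0 CPM with Hmga1 put back, and to 27.0 and 22.1 CPM with Hmga2 put back. Between samples a and b of each of these 4 groups, the sample with the lower Zscan4 sum had the higher sum of these markers. For how many genes or other lists such a pattern holds was not counted, so it lends no support to a link. In the full-deletion experiment the primitive endoderm markers summed to 10.5 to 11.2 CPM in WT and to 13.6 to 13.7 CPM in the full deletion. Feeder fibroblast markers (7 listed, 3 to 6 of them with reads) summed to 3.55 to 16.4 CPM over all samples, and trophoblast markers (5 listed, 3 to 5 with reads) to 60.2 to 172 CPM. In samples a and b the trophoblast sums were 60.2 and 78.5 CPM for WT and 126 and 66.6 CPM for KO. They were 167 and 60.4 CPM with Hmga1 put back, and 172 and 64.7 CPM with Hmga2 put back. Between a and b the trophoblast sum thus moved with the Zscan4 sum, except with Hmga2 put back, where it moved against it. The ESC markers summed to 3954 to 4673 CPM in the KO experiment and to 3248 to 6022 CPM in the other. The part of these cells in the Zscan4 values was not tested.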

How the data were processed

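RNA was measured in 15 samples of mouse ESC, grouped by the labels. The authors depleted ribosomal RNA, made stranded libraries, trimmed the first 3 of 50 bases, mapped them to mm9 (QuasR, bowtie), left a read with several best hits at 1 of these by chance, and counted sense reads over exons of UCSC known genes. The deposited values are raw counts. Depth was 13465399 to 34952136 counts per sample, and intervals cover counting error only. By the methods, RNA came from separate cultures of a line, collected on different days, so p-values measure the spread between cultures of 1 line and not between clones.

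Counts were tested with edgeR 4.0.16 in R 4.3.3 (TMM, mean count of at least 10, quasi-likelihood test, batch as a term in the KO experiment), with Benjamini-Hochberg adjustment. The letters of the KO experiment pair the samples as batches by the methods. There the log2 difference between WT a and b correlated across genes at 0.430 with that in KO, and at 0.320 and 0.338 with those in the Hmga1 and Hmga2 add-backs. CPM are counts scaled to the TMM-normalized total, and RPKM divides these by the exonic length in the table. Correlations used log2 CPM with a prior count of 2. Alternatives were DESeq2 1.42.0, limma-trend (limma 3.58.1), other scalings and filters, and leaving out each sample. The members and lists were chosen with earlier results of these data known. Named were the 6 copies, the 5 genes most like their sum, the called genes of each list or its 2 most abundant, and Zfp352, Tcstv1, Tcstv3, Dppa2, Dppa4 and Rif1. Gm2016 and Gm5662 are the called ones. The scripts were tested on simulated data. Windows, identity and promoters (RefSeq, GRCm38.p6) used python 3.11.15 and biopython 1.88.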

Additional observations from a re-analysis of the deposited data

Results flagged for a closer look

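The effect of the full deletion and that of the KO on Zscan4, each against the WT of its own experiment, differed by the test of the difference itself. The log2 difference (full deletion minus KO) was -4.81 for the sum over the copies, -4.87 for Zscan4c, -5.25 for Zscan4e and -4.96 for Zscan4f, with adjusted p of 0.00688, 0.00860, 0.00808 and 0.00649 by edgeR. In the full deletion all 3 samples lay below all 3 WT samples, and in KO both samples lay above all 3 WT samples. The share of all genes that separate in this way was not counted, so this lends no support. Zscan4e had 6, 8 and 9 reads in WT a, b and c of the KO experiment, so its value lends no support either. Over 10 other settings and 15 left-out samples, the call of the sum was lost in 13. The family was taken up with earlier results known.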

How the results depend on the processing

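The direction of the summed level held in each comparison under 10 or 11 other settings, most of them of the kinds named with the methods. An adjusted p under 0.05 and no minimum fold change reuse the main fit, so the direction could not differ there. A sum over Zscan4c, Zscan4d and Zscan4f alone was also among the settings. DESeq2 called KO against WT (3.84, adjusted p = 4.4e-04) and the Hmga1 add-back against WT (3.29, adjusted p = 0.00531), and a fit of only the 2 groups called the Hmga2 add-back against WT (2.30, adjusted p = 3.35e-05). The difference of effects lost its call with plain totals (-4.48, adjusted p = 0.0142) and with a mean count of at least 50 (-4.80, adjusted p = 0.0105), and its settings other than DESeq2 size factors, no filter and left-out samples were chosen after seeing the data. Batch a minus batch b in the Hmga1 add-back was 0.28, and 0.46 with plain totals. The cause was not tested.

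Leaving out each sample gave log2 ranges of 2.82 (without KO a) to 4.81 (without WT b, called at adjusted p = 0.00998) in KO against WT, 2.53 to 4.34 and 1.44 to 3.24 in the Hmga1 and Hmga2 add-backs against WT, -1.26 to 0.64 and -2.46 to -0.55 in the same against KO, -1.60 to -0.66 between the add-backs, -0.95 to -0.82 in the full deletion and -5.70 (without WT b of the KO experiment) to -3.70 (without KO a) in the difference of effects. For single copies the Hmga1 add-back against KO ranged from -1.45 to 1.11 (Zscan4a), -1.11 to 0.19 (Zscan4b), -1.25 to 0.51 (Zscan4c), -1.29 to 0.68 (Zscan4d), -1.25 to 0.12 (Zscan4e) and -1.05 to 0.74 (Zscan4f), and the Hmga2 add-back against KO from -2.44 to 0.14 for Zscan4a, the positive values all without KO a. Without WT b of the full-deletion experiment, the full deletion stood at -0.86.

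Without the replicate block of batches, KO against WT was 4.09 (adjusted p = 0.0362) and the difference of effects -5.00. In the full-deletion experiment the letters did not pair the samples (correlations of 0.064, 0.070 and -0.055), and the replicate block gave -0.90 (adjusted p = 0.0453). Neither changed a call of the sum. The count of genes called in KO against WT was 3, and 0 to 71 over the settings. In the full deletion it was 9, and 1 to 460. Depth limits WT of the KO experiment most, with 65 to 94 reads on the family per sample.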

Other observations

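Inside the span of the cluster lay 1 other counted gene, which is not described here. Of the genes with a position at hand, the nearest tested ones outside were Zik1 and Gm6900 on the left and Zfp551 and Zfp606 on the right. These neighbours lay 243.8 to 1076 kb away. Their log2 fold changes were -0.24 to 0.23 in KO and -0.49 to 0.77 in the full deletion, and none was called by edgeR (adjusted p of 0.502 to 0.797 and of 0.0725 to 0.632). The bodies of the 5 Zscan4 genes with a model were 60.1% to 60.4% A and T, against a median of 54.2% over 37310 genes.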
